A study of Canis lupus familiaris with 13 samples.

Results

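The transcripts described here are those of 9 CC chemokine system genes, 9 of the 43427 gene symbols in the deposited count table. They were chosen by symbol: the 4 ligands of the monocyte chemoattractant protein (MCP) group, CCL2, CCL7, CCL8 and CCL13, the 3 ligands CCL3, CCL4 and CCL5, and the 2 receptors CCR1 and CCR2. All 9 had a row in the table and all 9 passed the filter on low counts, together with 20118 genes in total.

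CC chemokines are small secreted proteins, named for a pair of adjacent cysteines, that guide leukocytes by binding to G protein-coupled receptors on their surface. CCR2 is carried mainly by monocytes and binds the MCP group ligands. CCR1 is carried by monocytes, macrophages and, in several species, neutrophils, and binds CCL3 and CCL5 together with several MCP ligands. CCL3, CCL4 and CCL5 also attract T cells and natural killer (NK) cells. In tumors these ligands are made by macrophages, T cells, endothelium, fibroblasts and tumor cells.

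The biopsies came from 3 companion dogs treated with IMAX, a nanoparticle formed by the polymer conjugate 2E′ that carries paclitaxel (PTX) and a cyclic dinucleotide (CDN), an agonist of the innate immune sensor STING, injected into the tumor. Dog RV, a spayed mixed-breed female with a soft tissue sarcoma of the hock, was sampled untreated, then 2 days past dose 2, and last, 2 weeks past dose 3, at the injection site and beside it. Dog CL, an intact female Shih Tzu, had a cranial and a caudal mammary carcinoma, each sampled untreated and then 1 week and 1 month past dose 2. Dog BM, a spayed female Great Pyrenees, had its treated left caudal mammary carcinoma sampled untreated and then 1 week and 3 weeks past dose 2. The groups are thus before (4 libraries), early (4 libraries, 2 days or 1 week) and late (5 libraries, 2 weeks to 1 month). No library came from an untreated or vehicle-treated tumor after the start of treatment, so time, repeated biopsy and treatment cannot be told apart. The 2 CL tumors share a dog, and each tumor has 1 library per time point except late RV.

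Total counts were between 11622444 and 29931125 per library, and a count of 3 corresponded to 0.0833 to 0.262 CPM (the count scaled to a library of 1000000 reads on genes), adjusted by the trimmed mean of M values (TMM). The summed level of 5 simple epithelium markers was 24.9 to 105 CPM in the 4 sarcoma libraries and 1700 to 4532 CPM in 5 mammary libraries. It was 281 to 650 CPM in the 3 CL caudal libraries and 154 CPM in the late BM library, so these 4 lay below the other mammary libraries in epithelial markers. In the sections of the RV biopsy at 2 days, tumor cells were not definitively identified, and 8 of 8 epidermis markers were higher than before, with a median log2 difference of 7.29. Values without that library, or without dog RV, stand beside the results that rest on it.

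On chromosome 9 of the RefSeq assembly UU_Cfam_GSD_1.0, the dog build also called canFam4, the 7 ligand genes stand in a pair of groups. CCL4 (chr9:37647662-37649011), CCL3 (chr9:37660062-37661488) and CCL5 (chr9:37783127-37789578) form the first, with 11.1 kilobases between CCL4 and CCL3. CCL13 (chr9:38907308-38908596), CCL8 (chr9:38917555-38919073), CCL7 (chr9:38963214-38964679) and CCL2 (chr9:38976777-38978526) form the second. The receptor genes CCR2 (chr20:42710738-42719282) and CCR1 (chr20:42827348-42831924) lie on chromosome 20. Chemokine genes of such groups resemble each other, and CCL3 carries the synonyms of duplicated human copies in RefSeq. How reads shared between copies were counted is not given in the sources used here, so the split of counts among neighbors is uncertain.

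Taken over the 4 tumors, the CC chemokine and receptor transcripts were higher early than before, and late their median lay near the pretreatment level. All 9 had a positive early against before log2 fold change, with a median of 2.48 against 0.25 for all tested genes. Without dog RV all 9 stayed positive, with a median of 1.45 against 0.06 for all tested genes. CCL2, CCL8, CCL13, CCL5, CCR1 and CCR2 were higher early than before in each of the 4 tumors. This pattern held for 6 of 9 members and for 10.8% of the tested genes. Late against before, the median was 0.04 (all tested genes −0.05), and 0 of 9 were higher in all 4 tumors (7.13% of tested genes). Bulk RNA does not separate more cells of a type from more RNA per cell.

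**Figure D1:**
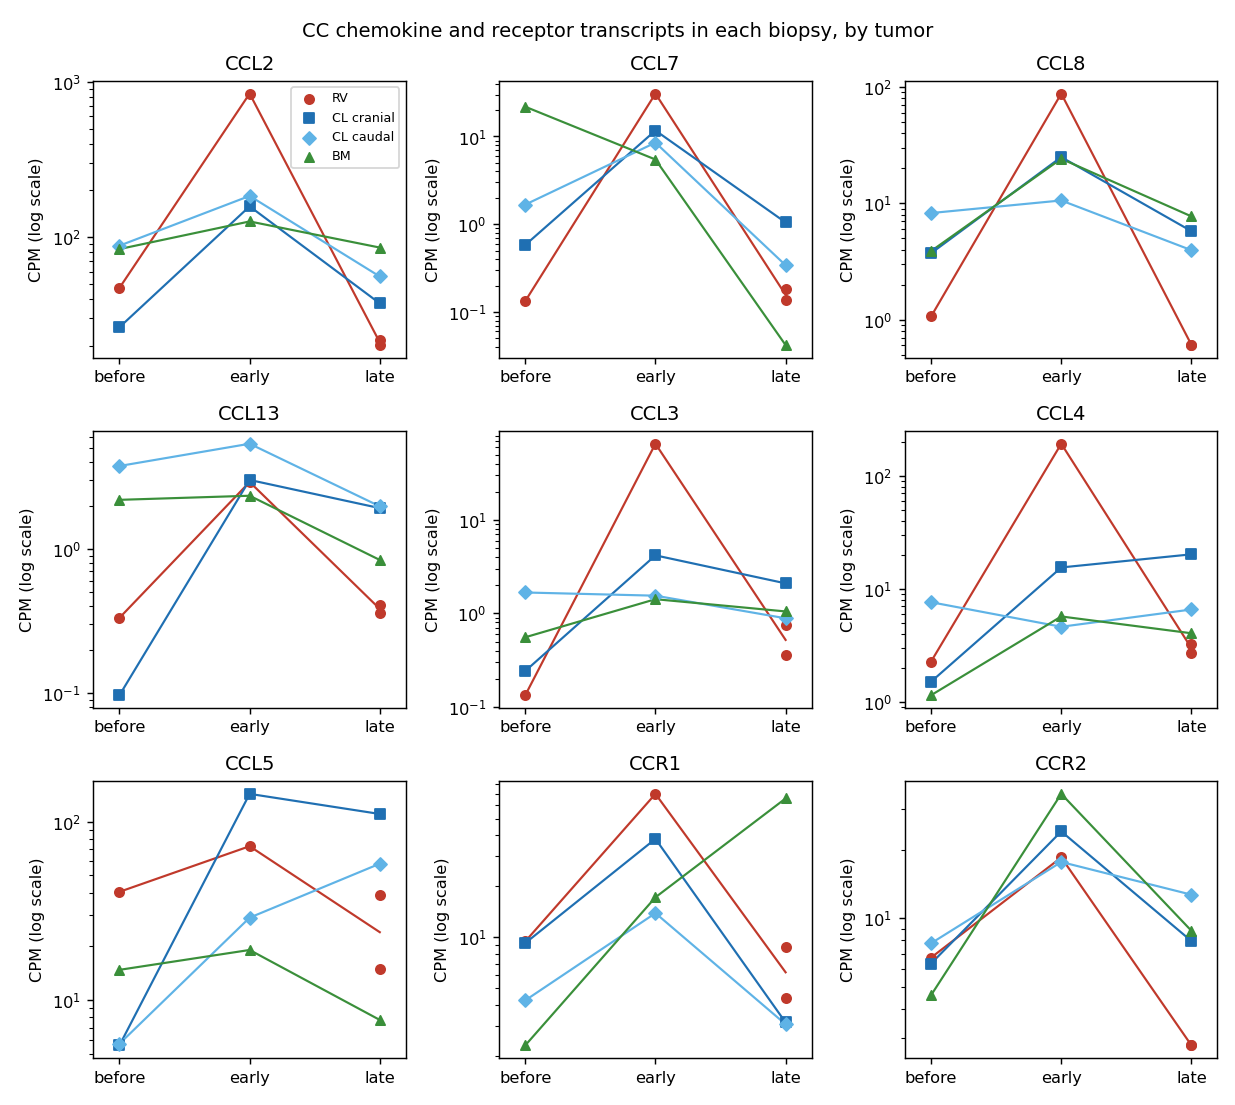
Level of each of the 9 transcripts in the 13 libraries, as TMM-scaled CPM on a log axis with its own range in each panel, against the time group (before, early, late). Each point is 1 library, colors and symbols mark the tumor, and lines join a tumor's time points, through the mean on the log scale of the 2 late RV sites. CCL2, CCL8 and CCR2 peak early in all 4 tumors, whereas CCR1 is highest late in BM at 65.9 CPM and CCL5 is highest late in CL caudal at 58.1 CPM.

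No member passed an adjusted p of 0.05 in the edgeR fit over all 13 libraries, in any of the 3 comparisons, while DESeq2 called some. In the edgeR quasi-likelihood test with the tumor as a block, 0 of 9 were called early against before, where 0.00497% of all tested genes were. By unadjusted p under 0.05, 6 of 9 were higher early than before (7.7% of tested genes): CCL2, CCL8, CCL3, CCL4, CCR1 and CCR2. DESeq2's Wald test on the same design called 5 of these, all but CCR1, and 936 of the 20118 tested genes. Without dog RV, 3 of 9 members had an unadjusted edgeR p under 0.05 early against before. So did 1301 of 19975 tested genes, in either direction. Early against late, edgeR called 0 of 9 (0.00994% of tested genes), with 5 of 9 higher at unadjusted p under 0.05 (17.7%): CCL2, CCL7, CCL8, CCL3 and CCR2. The same 5 were called by DESeq2, which called 4809 of the 20118 tested genes. Late against before, edgeR called 0 of 9 (0%), 0 of 9 were higher at unadjusted p under 0.05 (1.28%), and DESeq2 called 0. The early and late comparisons share libraries, so their values are given side by side and not as independent results.

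CCL2, or MCP-1, is the main ligand of CCR2 and draws monocytes from blood. Before treatment its level was 47.2 CPM in RV, 83.9 in BM, 26.3 in the cranial CL tumor and 88.2 in the caudal CL tumor. Early it was 841 CPM in RV, 126 in BM, 158 in the cranial CL tumor and 185 in the caudal CL tumor. Late it was 20.2 and 21.9 CPM at the RV injection and adjacent sites, 85.8 in BM, 37.5 in the cranial CL tumor and 55.9 in the caudal CL tumor. Every early library lay above every library before and late. The early against before log2 fold change was 2.48 (SE 0.74, edgeR adjusted p = 0.269), and 1.24 without the RV library at 2 days. Early against late it was 2.89 (SE 0.70, edgeR adjusted p = 0.0618). The gain within a tumor was largest in RV, at 4.15 log2 units, and smallest in BM, at 0.59.

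CCL8, or MCP-2, which engages several CC receptors, had the most marked change of the MCP group in the fit against pretreatment. Its level before treatment was 1.07 CPM in RV, 3.89 in BM, 3.73 in the cranial CL tumor and 8.26 in the caudal CL tumor. At the early time it was 87.8 CPM in RV, 24.2 in BM, 25.0 in the cranial CL tumor and 10.6 in the caudal CL tumor. At the late time it was 0.610 and 0.605 CPM at the RV injection and adjacent sites, 7.73 in BM, 5.77 in the cranial CL tumor and 3.96 in the caudal CL tumor. The early libraries again lay above all others, with CL caudal closest to its own pretreatment level. The log2 fold change was 3.60 early against before (SE 1.15, edgeR adjusted p = 0.299) and 1.71 without the RV library at 2 days. The early against late value was 3.78 (SE 1.05, edgeR adjusted p = 0.0713).

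CCL7, or MCP-3, which binds CCR1, CCR2 and CCR3, differed from CCL2 and CCL8 in dog BM. Before treatment it was at 0.133 CPM in RV (2 counts), 21.8 in BM, 0.581 in the cranial CL tumor and 1.67 in the caudal CL tumor. Early it was at 30.8 CPM in RV, 5.47 in BM, 11.7 in the cranial CL tumor and 8.51 in the caudal CL tumor. Late it was at 0.136 and 0.181 CPM at the RV injection and adjacent sites (2 and 3 counts), 0.0420 in BM (1 count), 1.05 in the cranial CL tumor and 0.341 in the caudal CL tumor. All 4 early libraries lay above all 5 late ones, but not above the pretreatment BM library, which held the second highest level of the series. In RV the early level was 231-fold the pretreatment level, with an exact 95% counting interval of 63.7 to 1914. In BM the pretreatment level was 520-fold the late level, with an interval of 93.0 to 20562. The 8 epidermis markers also fell in BM, with a median log2 difference from before of −4.87 early and −6.13 late. The skin content of the BM biopsies thus differed as well, and its part in the CCL7 level was not tested. Early against before, the log2 fold change was 2.54 (SE 1.87, edgeR adjusted p = 0.596) with 3 of 4 tumors higher, and 0.65 without dog RV. Early against late, it was 5.50 (SE 1.44, edgeR adjusted p = 0.0681). This is the widest early against late difference among the members, and its fitted size depends on late counts near the floor.

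CCL13, or MCP-4, is a monocyte and eosinophil attractant of the same group. Before treatment it was at 0.333 CPM in RV, 2.19 in BM, 0.0968 in the cranial CL tumor (2 counts) and 3.77 in the caudal CL tumor. Early it was at 2.92 CPM in RV, 2.34 in BM, 3.02 in the cranial CL tumor and 5.38 in the caudal CL tumor. Late it was at 0.407 and 0.363 CPM at the RV injection and adjacent sites, 0.840 in BM, 1.92 in the cranial CL tumor and 1.98 in the caudal CL tumor. The early libraries lay above the late ones, while the groups before and early overlapped. CCL13 was 31.1-fold higher early than before in CL cranial, with an exact 95% counting interval of 8.33 to 262, whereas BM differed by only 0.09 log2 units. The log2 fold change was 1.61 early against before (SE 0.92, edgeR adjusted p = 0.528), 0.97 without the pretreatment library of CL cranial, and 1.68 early against late (SE 0.82, edgeR adjusted p = 0.212).

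The MCP group as a whole was higher early than late in all 4 tumors, gene by gene. The groups did not overlap for 4 of 4 MCP ligands early against late, and for 5 of 9 members in all, with CCR2 as the fifth, whereas 4.49% of all tested genes were higher early than late without overlap. Higher early than late in all 4 tumors were 6 of 9 members, the MCP ligands with CCL3 and CCR2, and 17.4% of tested genes. Early against before, 4 of 9 members did not overlap, CCL2, CCL8, CCR1 and CCR2, and 2.71% of tested genes. Late against before, this held for 0 of 9 members and 0.293% of tested genes. Without dog RV, the early against late log2 fold changes were 1.51 for CCL2, 4.27 for CCL7, 1.77 for CCL8 and 1.09 for CCL13, all still positive. Late MCP values scattered around the pretreatment ones. The late minus before log2 differences of CCL2 were −1.16 in RV, 0.03 in BM, 0.51 in the cranial CL tumor and −0.66 in the caudal CL tumor.

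**Figure D2:**
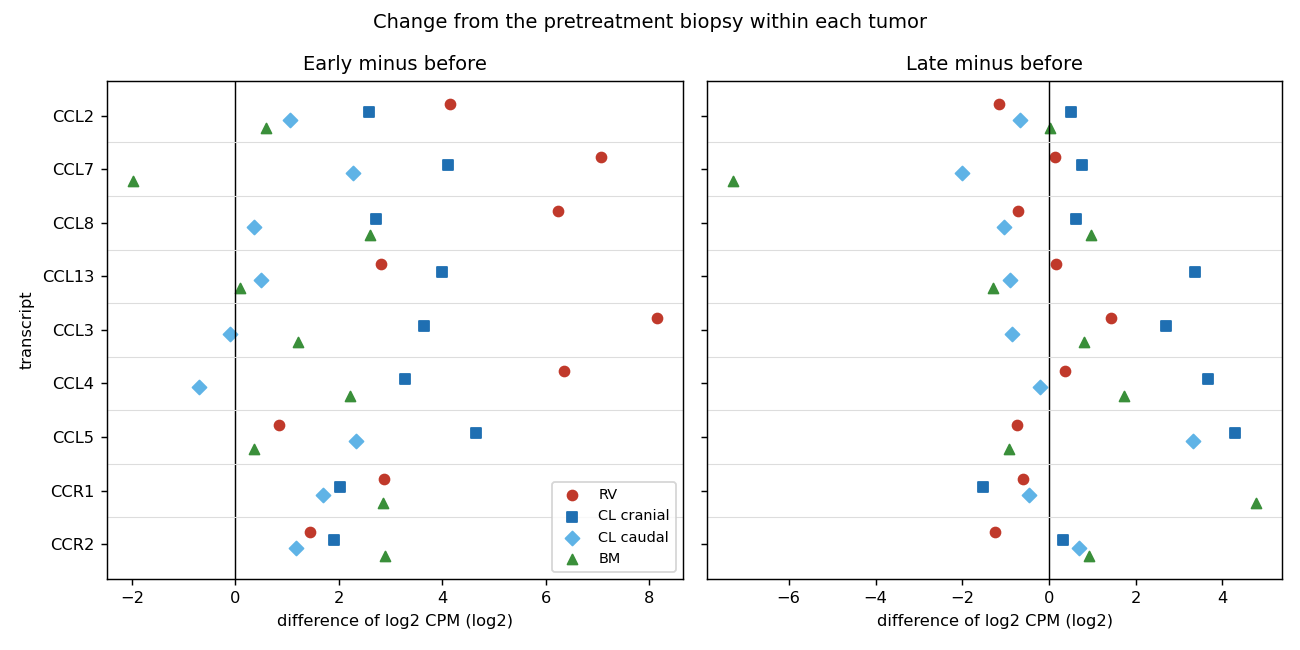
Difference of log2 CPM from the pretreatment library of the same tumor, early (left) and late (right), for the 9 transcripts, with 1 point per tumor and the 2 late RV sites averaged on the log2 scale. Early points lie right of 0 in all 4 tumors for 6 members, the exceptions being CCL7 in BM (−1.98), CCL3 in CL caudal (−0.11) and CCL4 in CL caudal (−0.71). Late points lie on both sides of 0 for each member.

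CCL3 and CCL4, the macrophage inflammatory proteins MIP-1α and MIP-1β, are made by activated macrophages, neutrophils, NK cells and T cells. CCL3 was at 0.133 CPM in RV before treatment (2 counts), 0.556 in BM, 0.242 in the cranial CL tumor and 1.67 in the caudal CL tumor. The early levels of CCL3 were 65.4 CPM in RV, 1.42 in BM, 4.18 in the cranial CL tumor and 1.55 in the caudal CL tumor. The late levels of CCL3 were 0.746 and 0.363 CPM at the RV injection and adjacent sites, 1.05 in BM, 2.10 in the cranial CL tumor and 0.887 in the caudal CL tumor. RV at 2 days stood far above the other early libraries, with an early level 491-fold the pretreatment one (exact 95% counting interval 136 to 4060). CL caudal and BM stayed within the range seen before treatment. The log2 fold change of CCL3 was 3.95 early against before (SE 1.67, edgeR adjusted p = 0.441), and 1.45 without dog RV. Early against late, CCL3 had 3.33 (SE 1.45, edgeR adjusted p = 0.171), and 0.63 without the RV library at 2 days.

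CCL4, like CCL3, was higher early than before in RV, BM and CL cranial and lower in CL caudal. In CL cranial, CCL4 was higher late than early, whereas CCL3 was lower. The pretreatment level of CCL4 was 2.27 CPM in RV, 1.14 in BM, 1.50 in the cranial CL tumor and 7.60 in the caudal CL tumor. At the early time CCL4 was at 193 CPM in RV, 5.68 in BM, 15.4 in the cranial CL tumor and 4.60 in the caudal CL tumor. At the late time CCL4 was at 3.26 and 2.72 CPM at the RV injection and adjacent sites, 4.03 in BM, 20.2 in the cranial CL tumor and 6.55 in the caudal CL tumor. The RV level at 2 days again exceeded all others, CL cranial kept a high level to 1 month, and CL caudal was lower early than before. CCL4 had a log2 fold change of 3.53 early against before (SE 1.43, edgeR adjusted p = 0.422), and 1.17 without the RV library at 2 days. The early against late value of 2.28 (SE 1.28, edgeR adjusted p = 0.275) became −0.08 without dog RV. Over the 13 libraries, the log2 levels of the neighboring genes CCL3 and CCL4 had a Pearson r of 0.94, and 0.84 over the 12 other libraries when RV at 2 days was left out. These libraries share tumors and are not independent.

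CCL5, or RANTES, is made by T cells and NK cells as well as by other cells under interferon and NF-κB signaling. It started at 40.4 CPM in RV, 14.8 in BM, 5.57 in the cranial CL tumor and 5.68 in the caudal CL tumor. Early it reached 72.7 CPM in RV, 19.1 in BM, 143 in the cranial CL tumor and 28.9 in the caudal CL tumor. Late it stood at 38.7 and 14.9 CPM at the RV injection and adjacent sites, 7.73 in BM, 110 in the cranial CL tumor and 58.1 in the caudal CL tumor. CCL5 was thus higher early in each tumor, by 0.37 to 4.66 log2 units, but the groups overlapped, since RV before treatment lay above early CL caudal and BM. In RV the early gain of 0.85 was smaller than the difference of 1.37 between its 2 late sites. In both CL tumors CCL5 remained above its pretreatment level late, by 4.28 log2 units in CL cranial and 3.33 in CL caudal. The late minus before difference was −0.75 in RV and −0.92 in BM. The fitted log2 fold change was 1.48 early against before (SE 0.84, edgeR adjusted p = 0.527), 0.82 without the pretreatment library of CL cranial, and 0.47 early against late (SE 0.76, edgeR adjusted p = 0.712). Late against before, its 95% interval ran from −0.85 to 2.86 (edgeR adjusted p = 0.973). The early against late value was −0.02 without dog RV.

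The T cell and NK lists moved beside CCL5 in dog CL. Late minus before, the median of 8 T cell markers was 2.23 in CL cranial and 2.82 in CL caudal, against 0.29 in RV and 0.69 in BM. The median of 7 NK and cytotoxic markers was 2.71 late minus before in CL cranial, 1.85 in CL caudal, 0.99 in RV and 1.44 in BM. CCL5 and these lists were both higher late in the CL tumors, while in BM CCL5 was lower although the lists were not. In RV the lists were not lower either, and the late sites differed in CCL5. It was 0.368-fold its pretreatment level at the adjacent site. At the injection site it was 0.957-fold, with an exact 95% counting interval of 0.852 to 1.08. The part of these cells in the CCL5 level was not tested.

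CCR2 is the receptor of the MCP ligands and marks monocytes that arrive from blood. Before treatment CCR2 was at 6.73 CPM in RV, 4.61 in BM, 6.34 in the cranial CL tumor and 7.78 in the caudal CL tumor. Early CCR2 was at 18.5 CPM in RV, 35.0 in BM, 24.0 in the cranial CL tumor and 17.6 in the caudal CL tumor. Late CCR2 was at 2.78 CPM at both RV sites, 8.82 in BM, 7.95 in the cranial CL tumor and 12.7 in the caudal CL tumor. The early libraries lay above all others. Its early minus before differences ran from 1.17 to 2.90 log2 units, and those of CCR1 from 1.69 to 2.88, the narrowest spans over the tumors among the 9 members. Its log2 fold change was 1.85 early against before (SE 0.52, edgeR adjusted p = 0.237, the lowest of the members) and 2.05 without dog RV. Early against late, it was 1.82 (SE 0.48, edgeR adjusted p = 0.0684). BM had the smallest CCL2 difference and the largest CCR2 difference, at 0.59 and 2.90.

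CCR1, a receptor for CCL3, CCL5 and other ligands, behaved like CCR2 early but not late. It was at 9.46 CPM in RV before treatment, 2.31 in BM, 9.25 in the cranial CL tumor and 4.25 in the caudal CL tumor. It was at 70.2 CPM in RV early, 17.2 in BM, 38.1 in the cranial CL tumor and 13.9 in the caudal CL tumor. It was at 4.41 and 8.77 CPM at the late RV injection and adjacent sites, 65.9 in BM, 3.15 in the cranial CL tumor and 3.07 in the caudal CL tumor. All early libraries lay above all pretreatment ones. In BM the late level exceeded the early one, by contrast with the other 3 tumors, where CCR1 was lower late than before. The log2 fold change was 2.29 early against before (SE 0.94, edgeR adjusted p = 0.424). Early against late, it was 1.88 (SE 1.01, edgeR adjusted p = 0.256) over all libraries. It was 0.64 without dog RV. Without the late BM library it was 3.16 and passed the threshold, with an edgeR adjusted p of 0.0434. Late against before, it was 0.41 (SE 1.01, edgeR adjusted p = 0.985), and −0.85 without dog BM.

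**Figure D3:**
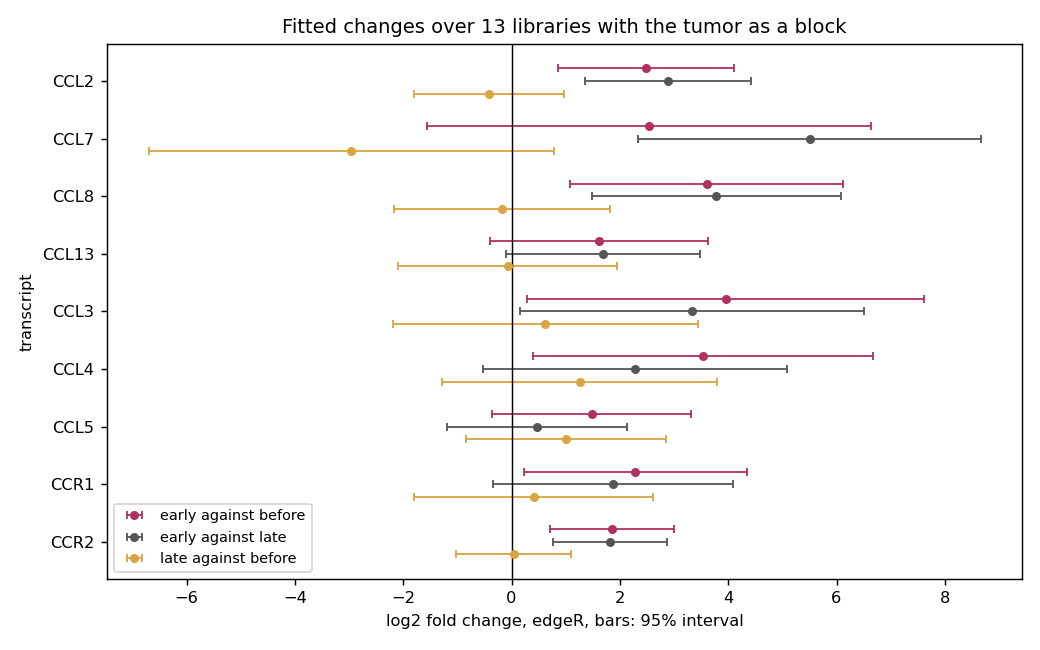
Log2 fold changes of the 9 transcripts in 3 comparisons (early against before, early against late, late against before), fitted over 13 libraries by edgeR with the tumor as a block. Points are estimates and bars 95% intervals, not adjusted for the number of genes tested. Early against before, the interval of CCR2 runs from 0.71 to 2.99 and that of CCL7 from −1.55 to 6.64; late against before, each interval includes 0.

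The tumors differed in how far the members moved as a set. Early minus before, the median over the 9 members was 4.15 log2 units in RV, 1.22 in BM, 3.28 in the cranial CL tumor and 1.06 in the caudal CL tumor. Over all tested genes, the medians were 0.26 in RV, −0.02 in BM, 0.01 in the cranial CL tumor and 0.10 in the caudal CL tumor. All 9 members were higher early in RV and in CL cranial, 8 in BM and 7 in CL caudal. Of the 20118 tested genes, 10956 were higher early in RV, 10151 in CL cranial, 9887 in BM and 10597 in CL caudal. The RV library was taken at 2 days and the others at 1 week, and tumor type and dog differ as well, so these cannot be told apart. Late minus before, 8 of 9 members were higher in CL cranial, 6 in BM, 4 in RV and 2 in CL caudal. Of the 20118 tested genes, 9377 were higher late in CL cranial, 9666 in BM, 10274 in RV and 9672 in CL caudal. The BM and RV counts of members thus lay near the share over all tested genes. The median late difference was 0.76 in CL cranial, 0.81 in BM, −0.60 in RV and −0.66 in CL caudal.

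The pair of late RV libraries gave the only view of spread within a tumor. Between the injection and the adjacent site, the members differed by a median of 0.25 log2 units, and all tested genes by 0.48. CCL5 was 1.37 higher at the injection site, more than its RV gain of 0.85 at 2 days. CCR1 differed by −0.98, against an RV gain of 2.88. CCL3 was 0.87 higher at the injection site, on 11 against 6 counts, against an RV gain of 8.15. The other 6 members differed by 0.26 or less, smaller than the RV gain at 2 days for each of them.

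Taken as a list, macrophage markers were higher in the same early libraries. The summed level of 10 monocyte and macrophage markers was 244 to 618 CPM before, 994 to 2839 early and 308 to 1147 late, with no overlap between before and early. Of these 10 markers, 9 were higher early than before at unadjusted edgeR p under 0.05 (7.7% of tested genes). The list's median log2 fold change was 2.30. All 10 were higher early in BM and in CL cranial, 7 in RV and 7 in CL caudal. In all 4 tumors, 5 of 10 were higher (10.8% of tested genes). By tumor, the median early difference of the list was 2.44 in RV, 3.26 in BM, 1.81 in the cranial CL tumor and 1.28 in the caudal CL tumor. BM, with the highest value, also had the highest early CCR2 level. Late, the list stayed 2.19 above its pretreatment level in BM, the library with the high CCR1 level, and within 0.59 of it elsewhere. In late BM, 9 of the 10 markers were higher than before (9666 of 20118 tested genes), while ITGAM was at 11.4 CPM against 13.4 before. The paper describes carcinosarcoma features in this late BM biopsy and a mostly absent inflammatory reaction. The median late difference of the fibroblast list in BM was 4.93. Neutrophil markers (7 tested) had early medians of 6.56 in RV, −0.45 in BM, 3.68 in the cranial CL tumor and 0.40 in the caudal CL tumor. CCL3 and CCL4 were highest early in the tumors where that list was, RV and CL cranial. Neutrophil levels summed to 42.1 to 2112 CPM before, 43.8 to 6763 early and 36.1 to 1411 late, so these groups overlapped. The highest sum before was mostly S100A8 in CL caudal (1544 CPM), and the highest late was mostly MMP9 in BM (1401 CPM). CSF3R was at 2.93 and 0.672 CPM in these libraries, and CXCR2 at 0.120 and 0.0420. The mean log2 CPM of the list overlapped too, at 1.65 to 3.66 before, 2.10 to 8.67 early and 1.14 to 2.98 late. Endothelial markers were higher early than before in all 4 tumors for 5 of 5 genes (10.8% of tested genes). Their median log2 fold change was 2.35. The T cell, NK and B cell lists had early medians of 1.56, 1.81 and 1.10, and the simple epithelium and fibroblast lists of 0.09 and −0.32. Within RV, the T cell, NK and B cell medians were only 0.16, 0.28 and 0.05. They were 1.34, 2.36 and 2.13 in BM, 3.15, 3.46 and 1.43 in CL cranial, and 1.64, 1.42 and 0.75 in CL caudal. By tumor, the fibroblast list moved in opposite directions, by −2.82 in RV, 3.55 in BM, −0.66 in the cranial CL tumor and 0.41 in the caudal CL tumor. The simple epithelium list moved by 1.84 in RV, −0.76 in BM, −1.02 in the cranial CL tumor and 0.18 in the caudal CL tumor. None of these markers was called over all tested genes, and their part in the chemokine levels was not tested.

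**Figure D4:**
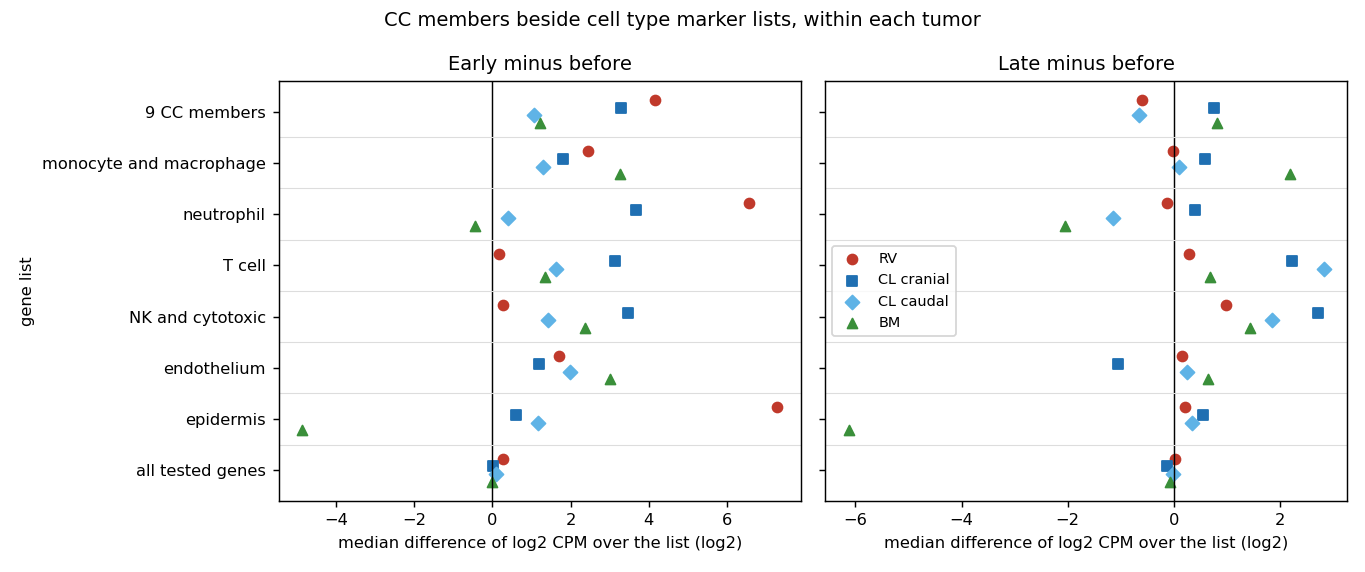
Median difference of log2 CPM from the pretreatment library, early (left) and late (right), for the 9 CC transcripts, 6 marker lists and all tested genes, with 1 point per tumor. RV shows high early medians for the CC transcripts (4.15), neutrophil markers (6.56) and epidermis markers (7.29), while BM shows the highest early macrophage median (3.26) and the highest late one (2.19).

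Genes with the most similar levels over the 13 libraries were named for each member, as a description of log2 levels in libraries that share tumors. CCR1 was closest to the macrophage gene CD68 (Pearson r = 0.95), followed by PAX8 (0.90) and CD14 (0.90). CCR2 was closest to TNFSF13B, which encodes the B cell factor BAFF (0.95), then GAS7 (0.93) and CD180 (0.91). CCL5 was closest to TRAT1, a T cell receptor adaptor (0.92), KLRK1, the NK receptor NKG2D (0.92), and CD226 (0.88). CCL3 was closest to TREM1, an activating receptor of neutrophils and monocytes (0.96), CD300E (0.95) and KMO (0.95). CCL4 was closest to KMO (0.95), BCL2A1 (0.94) and C17H1orf162 (0.94). CCL2 was closest to NLRP1 (0.93), TLL2 (0.92) and the interferon-induced gene IFIT2 (0.92). CCL8 was closest to PTPRE (0.97), STAG3 (0.96) and KLHL6 (0.96), CCL7 to IL17REL (0.94), FAM163A (0.93) and LCN2 (0.92), and CCL13 to CA6 (0.89), WSCD2 (0.89) and MMP12 (0.88). Without the RV library at 2 days, 14 of these 27 neighbors were still among the closest 3 of their member, among them all 3 of CCL8 but 0 for CCL3 and 0 for CCL4. Members resembled each other most for CCL3 with CCL4, then CCL2 with CCL8 (0.90), and least for CCL5 with CCR1 (0.08).

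Other genes of the CC system were examined as lists. Of 15 other CC chemokines, 14 had a row and 9 were tested. Of these 9, 2 had an unadjusted p under 0.05 early against before, both higher (7.7% of tested genes). The list's median log2 fold change was 1.27. The fitted change was positive for 6 of the 9 and negative for CCL24, CCL27 and CCL28, named after their values were seen. By tumor, the list's median early difference was 1.60 in RV, −0.60 in BM, 1.48 in the cranial CL tumor and −1.09 in the caudal CL tumor. CCL23, a ligand of CCR1 whose gene lies between CCL3 and CCL5, was at 56.1 ± 29.0 CPM before (SD, n = 4) and 281 ± 155 early (SD, n = 4). Its log2 fold change was 2.23 (SE 0.50, edgeR adjusted p = 0.154), higher in 4 of 4 tumors and without overlap. CCL21, the CCR7 ligand of lymphatic vessels and lymphoid tissue, had a log2 fold change of 4.90 (SE 1.22, edgeR adjusted p = 0.182) with 3 of 4 tumors higher. Its early level was 982 CPM in BM, 72.6 in CL cranial, 23.2 in RV and 0.326 in CL caudal, where it was 0.957 before.

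Among 9 other CC receptors, 5 were tested and 5 had a positive early against before log2 fold change. Of these, 2 had an unadjusted p under 0.05 (7.7% of tested genes, counting those higher). CCR7, the receptor of dendritic cells and naive T cells for CCL21, was higher in 4 of 4 tumors at 1.82 (SE 0.93, edgeR adjusted p = 0.501). CCRL2, a chemerin-binding relative of these receptors, was at 268 CPM in RV at 2 days and at 0.336 to 4.50 CPM in the other 12 libraries.

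Of 4 atypical chemokine receptors, which bind chemokines without G protein signaling, 4 were tested. Of these, 2 had an unadjusted p under 0.05, both higher early (7.7% of tested genes). ACKR1, the venular receptor that binds several of the CC ligands described here, had a log2 fold change of 3.20 (SE 0.82, edgeR adjusted p = 0.192) and was higher in 4 of 4 tumors. ACKR3 and ACKR4, scavengers of other chemokines, had log2 fold changes of 0.82 (SE 0.86) and 0.13 (SE 1.37). Below the receptors, 15 signaling genes were tested. Of these, 9 had an unadjusted p under 0.05, all higher early (7.7% of tested genes). In 4 of 4 tumors, 8 were higher (10.8% of tested genes), and the list's median was 1.87. RAC2, a GTPase of leukocyte migration, had a log2 fold change of 3.14 (SE 0.73, edgeR adjusted p = 0.161), and PIK3R5, a subunit of PI3Kγ, of 2.68 (SE 0.82, edgeR adjusted p = 0.280). GNAI2, the inhibitory G protein subunit coupled to these receptors, and GNG2 had values of 1.32 (SE 0.65) and 1.23 (SE 0.81). In the late against before comparison, the medians of these 4 lists were −0.39, 0.30, 0.70 and 0.66, and 0 genes of any list passed the edgeR adjusted threshold in any comparison.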

How the data were processed

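Strand-specific RNA-seq was performed on 13 tumor biopsies of 3 dogs. Reads were aligned by the authors in Strand NGS to the CanFam4.0 genome, and the deposited table holds untransformed counts for each gene symbol. The counting rule and annotation release are not given in the sources used here, and 0 per-sample columns were left unmapped. Of the symbols, 98.0% matched RefSeq's UU_Cfam_GSD_1.0 table, which gave the positions. No sequence was used, and transcript lengths were not used, so levels are not compared between genes. CCL11 and FPR1 are not analysed here. Not every gene that the naming rule below selects is reported here.

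Genes were kept by filterByExpr with the time group as its grouping and 10 as minimum count, then TMM-scaled and fitted with glmQLFit (robust) and glmQLFTest in edgeR 4.0.16 (R 4.3.3) on time group and tumor, with 7 residual degrees of freedom. P-values were two-sided and adjusted by Benjamini-Hochberg over 20118 genes, with a threshold of 0.05. SE is the log2 fold change divided by the square root of F. Differences within a tumor are of log2 CPM with a prior count of 2. Exact counting intervals are conditional binomial (95%) and cover counting error only, since the reads carry no molecular identifiers and may be PCR copies. P-values measure the spread between these biopsies.

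The fit has the tumor as a block because its biopsies come from the same mass. Deviations from group means correlated on average at 0.23 (before and early), 0.59 (before and late) and 0.19 (early and late) within a tumor. No library was a copy of another (lowest chi-square between libraries 49.4 per degree of freedom).

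The members, pathway lists and markers were chosen with earlier results of these data known. Named outside the members are, per list, the 2 genes with the largest early change of one sign in 4 tumors and the 2 with the highest mean CPM, and, per member, the 3 genes with the highest Pearson r. Alternatives were other size factors, no filter, no block or the dog as block, summed CL tumors or late RV sites, DESeq2 1.42.0, only the time points compared, a prior count of 0.5, and leaving out each tumor or library. The fitting code was also run on simulated counts that held no differences between tumors, so that run does not test the use of the tumor as a block. Figures were drawn with matplotlib 3.10.9.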

Additional observations from a re-analysis of the deposited data

Results flagged for a closer look

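For CCR2, the late minus before difference went in opposite directions in the sarcoma and in the mammary tumors. It was −1.25 log2 units in RV but 0.92 in BM, 0.32 (cranial) and 0.70 (caudal) for CL. This was the only case of opposite directions among the 18 contrasts of tumor type examined. How many such cases chance would give was not worked out, so this count does not set CCR2 apart from chance. In CL cranial the late level was 1.25-fold the pretreatment level, with an exact counting interval of 0.949 to 1.65, so its direction was not beyond counting error. The intervals of BM (1.55 to 2.36), CL caudal (1.30 to 2.06) and the RV sites (0.280 to 0.600, 0.285 to 0.591) excluded equal levels. The difference between tumor types was not tested, as RV is a single tumor. Its tumor type, dog, dose number and time cannot be told apart. Among 27 sets of 4 or 5 libraries, 0 had a library apart from the others by Dixon's criterion, where chance gives about 1.35 for independent sets. The sets reuse the same 13 libraries and are not independent. With so few libraries per set, only an extreme gap is flagged. CCL3 in RV at 2 days, at 65.4 CPM against 1.42 to 4.18 in the other early libraries, was not. The count of 0 thus does not show that no library stands apart.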

How the results depend on the processing

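Early against before, no member reversed its direction in any alternative, and none was called by any edgeR fit. DESeq2's Wald test called 5 members, and 936 genes in place of 1. The number of genes called was 0 with DESeq2 size factors, with no replicate block, with the dog as replicate block, with the late RV sites summed, with the CL tumors summed and with only the libraries of the 2 time points, and 17 without the filter on low counts. It was 0 to 12 when a tumor or library was left out. Early against late, 2 members were called without the filter, 5 by DESeq2, and 0 to 3 when a tumor or library was left out: 1 without RV before (CCL7), 3 without BM early (CCL2, CCL7 and CCL8) and 1 without BM late (CCR1). The genes called numbered 1081 without the filter, 4809 by DESeq2, 0 with no replicate block, the dog as replicate block, summed RV sites, summed CL tumors or only the libraries of the 2 time points, and 0 to 2000 when a tumor or library was left out (809 without RV before, 2000 without BM early, 28 without BM late). DESeq2 called 7 genes late against before, edgeR 0. The cause of these shifts was not tested. Without the filter, the median early against before log2 fold change of all genes moved from 0.25 to 0.58.

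Late against before, where no value differed from 0 by its test, several signs turned. With summed RV sites, CCL8 was at 0.0833 and CCL13 at 0.0146, and with only the libraries of the 2 time points CCL13 was at 0.0936. CCR2 was at −0.0246 without the filter, −0.0535 with summed CL tumors and −0.02 with only the libraries of the 2 time points. Leaving out a tumor or library gave −0.94 to 0.61 for CCL13, −0.14 to 1.86 for CCL3, −0.78 to 0.56 for CCL8, −0.85 to 1.35 for CCR1 and −0.29 to 0.65 for CCR2. Early against late, it gave −0.0776 to 3.42 for CCL4 and −0.0215 to 1.14 for CCL5, both lowest without dog RV. Of the 27 most similar genes, 14 were kept without the RV library at 2 days. A prior count of 0.5, DESeq2 size factors and a single late RV site left unchanged how many members were higher early in all 4 tumors or highest early in all 4.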
